A study of Homo sapiens with 2 samples.

Results

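The metallothionein family was described through 7 genes, MT1E, MT1F, MT1G, MT1M, MT1X, MT2A and MT3, taken by symbol from the 36601 genes in the 2 deposited single-cell tables. Those tables list 12 metallothionein genes, and the other 5 are given at the end of the section on levels. The cells of both libraries were astrocyte progenitors grown from the human embryonic stem cell line H7, in cultures that had received LIF, a cytokine, and the growth factors BMP4 and FGF1. One group was day 160 of differentiation and the other was day 220, with 1 library each. Every library mixed cells of 3 differentiations that no label tells apart. The extraction text of the day 220 sample still names the earlier day, and the deposited names of the libraries carry different prefixes, so time and any other difference between the cultures cannot be told apart. Cells were the barcodes with at least 1000 detected genes and at most 15% of their unique molecular identifiers (UMIs, each standing for 1 captured RNA molecule) from mitochondrially encoded genes. This left 9972 of 13018 barcodes at day 160 and 524 of 676 at day 220. The libraries shared 3 deposited barcodes, of which 2 were among the kept cells.

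The libraries differed in depth as well as in the number of cells. The kept cells of day 160 held 128847264 UMIs with a median of 10457.5 per cell, and those of day 220 held 25981066 with a median of 46438. Mitochondrially encoded genes took 11.7% and 8.79% of these UMIs. Each library was clustered alone, and the labelled cell type was checked against 12 astrocyte markers, calling a marker raised in a cluster at 5 CPM or more and at least 1.5-fold over the rest of its library. At least 3 astrocyte markers were raised in 2 of 11 day 160 clusters and in 1 of 7 day 220 clusters (clusters of 30 or more cells). Markers of neuronal precursors were raised to the same extent in 5 of 11 and 4 of 7 clusters, so the cultures held more than astrocyte-like cells. Markers of microglia and endothelium were close to absent, with summed levels of at most 1.89 and 1.43 CPM (UMIs of a gene per 10⁶ UMIs of all genes) in any of these clusters.

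Metallothioneins are small cytosolic proteins whose many cysteines bind zinc and copper and can take up cadmium and reactive oxygen species. Their genes are switched on by the zinc-sensing transcription factor MTF1 through metal response elements in the promoter, and some also by glucocorticoids and by LIF-type cytokines acting through STAT3. In the brain, MT1 and MT2 proteins are known above all from astrocytes, while MT3, first described as a growth inhibitory factor, is the isoform typical of nervous tissue and is less responsive to metals.

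The coding sequences show what the MT1 genes and MT2A share. The 2 printed here are those of the members with the most UMIs, MT2A and MT1X, from GENCODE release 29 transcripts on GRCh38, read 5′ to 3′ with every cysteine codon (TGC or TGT) in capitals.
MT2A: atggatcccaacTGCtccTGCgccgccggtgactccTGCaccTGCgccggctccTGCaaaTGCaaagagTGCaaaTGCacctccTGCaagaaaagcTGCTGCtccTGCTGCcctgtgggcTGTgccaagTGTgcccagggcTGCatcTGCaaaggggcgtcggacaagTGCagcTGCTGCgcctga
MT1X: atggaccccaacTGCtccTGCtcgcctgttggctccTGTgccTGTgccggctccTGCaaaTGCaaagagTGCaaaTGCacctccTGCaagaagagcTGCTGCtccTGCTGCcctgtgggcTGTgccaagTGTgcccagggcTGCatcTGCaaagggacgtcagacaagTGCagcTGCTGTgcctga
Cysteine took 20 of 61 codons in MT2A and MT1X (32.8%), and the spacing of the capitals shows the runs of paired cysteines that hold the metal. Among MT2A and the 5 MT1 members, coding sequences were 88.7% to 95.2% identical over 15 pairs.

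This likeness bears on how reads are assigned. Over 90-base windows in the last 500 bases of the annotated transcripts, where a 3′ kit reads, 22.2% of the windows of MT1X also occurred in another annotated gene (AC026461.1 or MT1G). AC026461.1 is not among the genes of the tables. For MT1G the share was 0.863%, shared with MT1X, and for MT2A, MT1F, MT1E, MT1M and MT3 no window occurred elsewhere. Counts of MT1X and MT1G are therefore uncertain where the counting split or dropped such reads, which was not tested.

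The genes lie together. In GENCODE, 11 of the 12 metallothionein genes of the tables fill 119148 bases of chromosome 16 on GRCh38, from 56565049 to 56684196, with 10 on the plus strand and MT1G on the minus strand, and MT1HL1 lies on chromosome 1. MT2A (ENSG00000125148) spans 56608199 to 56609497, MT1X (ENSG00000187193) spans 56682424 to 56684196, MT1F (ENSG00000198417) spans 56657694 to 56660698 and MT3 (ENSG00000087250) spans 56589074 to 56591088. MT1E (ENSG00000169715) spans 56625475 to 56627112, MT1M (ENSG00000205364) spans 56632233 to 56633986 and MT1G (ENSG00000125144) spans 56666731 to 56668065.

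RefSeq promoter sequences on GRCh38.p14 were at hand for 2 of the 7 members, MT2A and MT1X, the 2 highest genes of the family. They run from 250 bases before the RefSeq start of the gene to 50 after it. The RefSeq starts, 56608584 for MT2A and 56682470 for MT1X, lie 385 and 46 bases after the GENCODE starts given above, so the part of MT2A's window before its RefSeq start falls wholly within a first exon in GENCODE and is not printed. For MT1X, the 204 bases that lie before both starts show how the matches to the core of the metal response element, in capitals, are spaced on the plus strand. The cores searched were TGCACNC and TGCGCNC on both strands, and no match overlapped another.
MT1X, chr16:56682220-56682423: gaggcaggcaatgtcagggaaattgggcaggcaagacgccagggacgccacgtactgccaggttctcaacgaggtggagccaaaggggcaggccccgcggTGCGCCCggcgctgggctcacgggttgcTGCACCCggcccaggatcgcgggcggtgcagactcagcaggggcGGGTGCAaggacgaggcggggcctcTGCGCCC
Before the RefSeq start, MT2A had 7 matches and MT1X had 4, and MT2A had 1 more in the 50 bases after it. Of 35116 RefSeq promoter windows of 300 bases, 29.6% held at least 1 match, 0.601% held at least 4 and 0.0199% held at least 8. A match is a run of letters and not a measured binding site.

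MT2A carried most of the family's RNA on both days, followed by MT1X and MT1F. Levels are CPM of the UMIs pooled from all kept cells. Since a 3′ kit counts each molecule once, the levels were not divided by transcript length. With 1 library per day no test was possible, and all intervals are 95% intervals for counting error only, exact Poisson for a level, conditional binomial for a ratio and Clopper-Pearson for a share of cells. In pooled sums of this kind, fewer cells of a type and less RNA per cell cannot be told apart.

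MT2A, the most widely expressed isoform, had 155 CPM at day 160 (153 to 157, 19979 UMIs) and 189 CPM at day 220 (184 to 194, 4910 UMIs). It ranked 921st of 25324 genes with a UMI at day 160 and 765th of 26157 at day 220. Its level was 1.22-fold higher in the day 220 library (1.18 to 1.26). MT1X, an isoform whose RNA is inducible by metals in many human cells, had 53.6 CPM (52.4 to 54.9) and 97.6 CPM (93.8 to 101), a ratio of 1.82 (1.74 to 1.90). This was the largest ratio among the 3 abundant members in these pooled sums. MT1F stood at 20.7 CPM (19.97 to 21.5) and 31.0 CPM (28.9 to 33.2), a ratio of 1.495 (1.38 to 1.62). For these 3 genes the day 220 interval lay wholly above the day 160 interval. The order of MT1X and MT1F turned when cells with at least 5000 UMIs were each reduced at random to 5000. The log2 ratio of CPM + 1 was then 0.78 for MT1F and 0.55 for MT1X.

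MT3, the nervous tissue isoform, was scarce in both libraries. At day 160 it had 5.18 CPM (4.80 to 5.59, 668 UMIs), at day 220 it had 4.46 CPM (3.69 to 5.36, 116 UMIs), and the interval of the ratio, 0.701 to 1.05, held 1. The other MT1 genes were lower still. MT1G had 1.10 CPM and 2.85 CPM, a ratio of 2.58 (1.92 to 3.45), but a single day 220 cell held 19 of its 74 UMIs, and the ratio was 2.01 without the highest cell of each library. MT1M was the one member lower at day 220 beyond its counting error, at 0.993 CPM (128 UMIs) and 0.308 CPM (8 UMIs), 3.23-fold lower (1.59 to 7.63). MT1E had 0.605 CPM and 0.77 CPM from 78 and 20 UMIs, and its ratio interval, 0.737 to 2.10, held 1. In order of level, the interval of the ratio of MT1G to MT1M held 1 at day 160 (0.867 to 1.42), and that of MT1E to MT1M at day 220 did not (2.50, with 1.05 to 6.56).

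**Figure D1:**
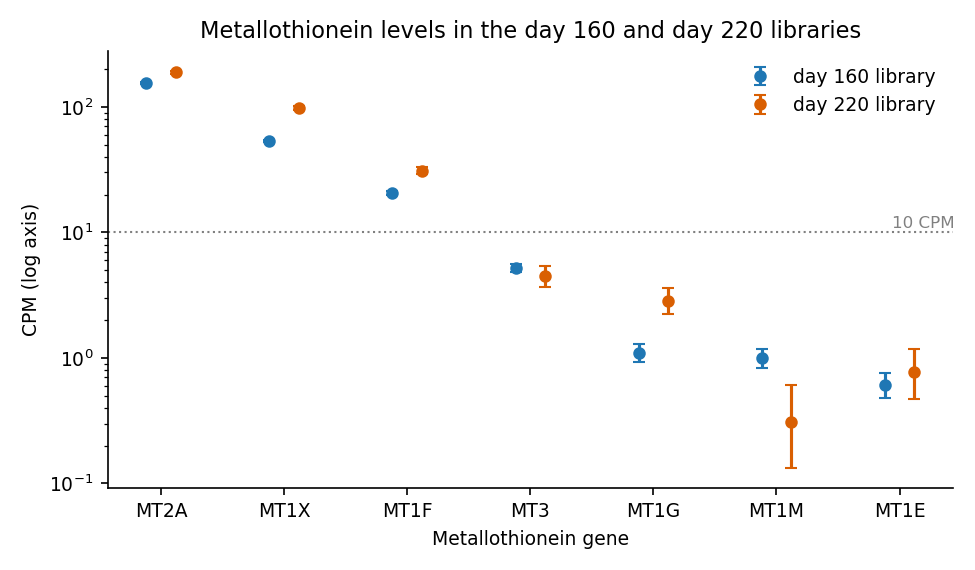
Level of each of the 7 metallothionein genes in CPM (log axis) in the day 160 library (blue) and the day 220 library (orange), with 95% Poisson intervals of counting error and a dotted line at 10 CPM. MT2A, MT1X and MT1F lie above the line in both libraries and are higher at day 220, while MT1M has 0.993 CPM at day 160 and 0.308 CPM at day 220.

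At day 160 the 7 genes summed to 237 CPM (235 to 240.0), and at day 220 the sum was 326 CPM (319 to 333), which is 1.37-fold higher (1.34 to 1.41). MT2A made up 65.3% of that sum at day 160 and 58.0% at day 220, and MT1X made up 22.6% and 29.9%, so MT1X made up more of the family at day 220 and MT2A less. MT1F contributed 8.74% and 9.52%. Among the 5 family members outside the chosen set, MT1A had 22 and 3 UMIs and MT1H had 6 and 5. MT1B, MT1HL1 and MT4 had no UMI in either library, which allows up to 0.0233 CPM at day 160 and 0.115 CPM at day 220 (3 UMIs).

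The day differences of the members were set beside those of all genes. Genes with at least 10 CPM in 1 library or more were counted, which 3 of the 7 members met (MT2A, MT1X and MT1F), and a gene was called when log2 of the ratio of CPM + 1 was at least 1 in size. None of the 3 reached this 2-fold line, where 28.0% of the 10167 genes counted did, 22.8% higher at day 220 and 5.15% lower. With only 3 members counted, this cannot be told apart from that share. On that log2 scale MT1X differed by 0.85, MT1F by 0.56 and MT2A by 0.28, beside a median of 0.14 over all counted genes. The median over all 7 members was 0.28.

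The day ratio of all genes moved with intron length, and the members are short genes. The part of a gene outside every annotated exon in GENCODE was 0 bases for MT2A and MT1X and at most 1116 bases for the members. The 615 counted genes within that range had a median log2 ratio of -0.40, with 4.88% past 2-fold upwards and 12.03% downwards. When each gene was centred on the median of genes of like intron length, the log2 ratio was 1.25 for MT1X, 0.99 for MT1F and 0.69 for MT2A, so MT1X then passed the 2-fold line. Of the 10139 genes counted with this centring, 1821 passed it, 1058 higher and 763 lower. For MT3 this centring turned the sign, from -0.18 to 0.22. Whether intron reads were counted alike in both libraries was not tested.

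Within a library, metallothionein RNA was spread unevenly over cells. To compare cells and days at one depth, each cell with at least 5000 UMIs was thinned to 5000, which left out 693 cells at day 160 and 30 at day 220. After thinning, MT2A was found in 39.2% of 9279 cells at day 160 (38.2% to 40.2%) and 43.7% of 494 cells at day 220 (39.3% to 48.2%), against 54.4% and 77.1% before thinning. MT1X was found in 21.04% and 27.9% of thinned cells, and before thinning in 38.9% and 80.7%. MT1F was found in 8.50% and 15.2% of them, against 18.9% and 55.2%. The day difference in shares was thus much smaller at equal depth, and for MT2A the intervals of the 2 days overlapped. MT3 was found in 2.07% and 2.02% of thinned cells, and MT1G, MT1M and MT1E in at most 1.42%.

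At day 160, 1.52% of thinned cells carried 5 or more MT2A UMIs and the highest carried 15, while 60.8% carried none. A Poisson spread around the same mean would leave 49.9% with none. The variance of MT2A over cells was 1.92 times its mean at day 160 and 2.11 times at day 220. Of genes with a like mean, 94.8% and 91.2% had a lower ratio, and their median ratios were 1.07 and 1.16. MT1X had ratios of 1.26 and 1.39, above 91.9% and 86.4% of genes with a like mean. MT1F at day 220 was not uneven in this way, with a ratio of 1.03 below the median of 1.06 for like genes. The 10% of cells with most MT2A held 48.4% of its thinned UMIs at day 160 and 48.8% at day 220.

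**Figure D2:**
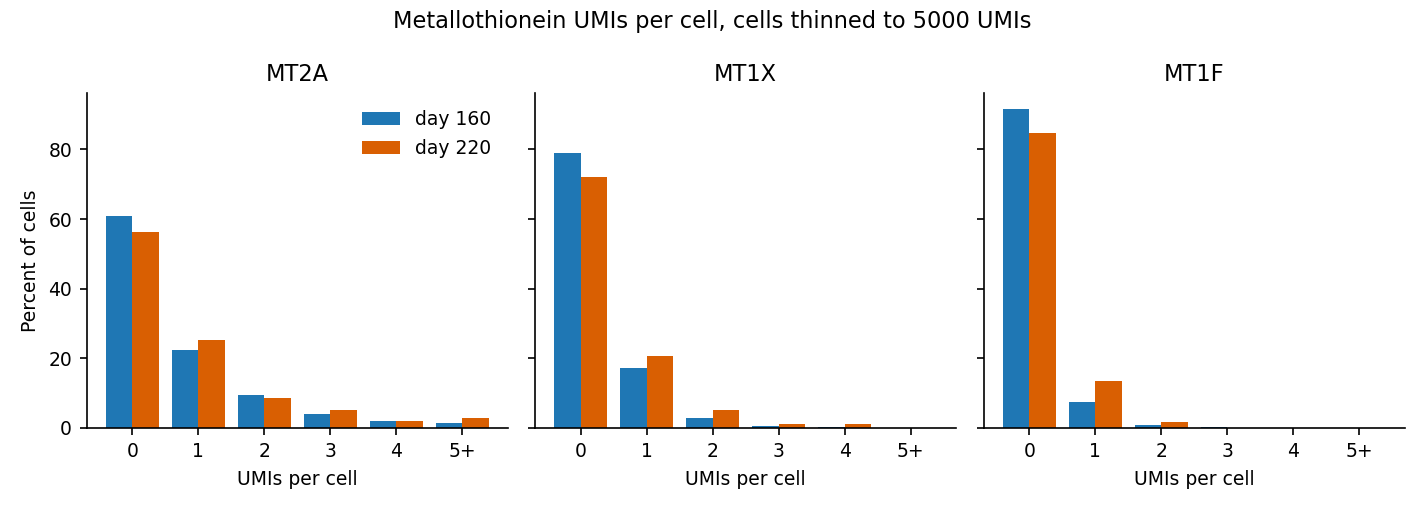
Share of cells by the number of UMIs of MT2A, MT1X and MT1F per cell after thinning to 5000 UMIs, with 9279 cells at day 160 (blue) and 494 cells at day 220 (orange). Most cells carry 0 or 1 UMI, and only MT2A has a visible share at 5 or more, 1.52% and 2.83%.

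MT2A levels differed widely between clusters. The clusters were made from genes that included some members, so their levels are a description, and clustering without the metallothionein genes gave almost the same range (10.5-fold against 10.4-fold for MT2A at day 160). A finer clustering, at resolution 1, gave a wider one, from 2.71 CPM in a cluster led by NSG2, which held 1 UMI of MT2A and 6 of MT1X, to 363 CPM in a cluster led by NMU. Clusters are numbered by size within a library and named by their leading gene. At day 160, MT2A was highest in cluster 0, led by HLA-DPA1 with 7 of 12 astrocyte markers raised (GFAP, AQP4, S100B and others), at 263 CPM (257 to 268). The same cluster had 8 of 12 radial glia markers raised (VIM, HOPX, FABP7 and others). MT2A was lowest in cluster 2, led by CRABP1 with 10 of 12 neuronal precursor markers raised, at 25.2 CPM (22.2 to 28.5), a 10.4-fold range (9.22 to 11.8). The other clusters with raised neuronal precursor genes were also low, with 34.1 CPM in the SST cluster, 45.9 CPM in the CALB2 cluster and 56.7 CPM in the GADD45G cluster. Between these stood the COL1A1 cluster, with contractile genes, at 104 CPM, and the LGALS3 cluster, with at most 1 raised marker of any class, at 171 CPM.

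The same order held for shares of cells at equal depth. MT2A was found in 66.4% of thinned cells of cluster 0, whose cells had a median of 14962 UMIs before thinning, and in 11.0% of cluster 2, with a median of 7657 UMIs. Free RNA in the suspension can give UMIs to cells that do not express a gene, and 11.0% was the lowest share in any day 160 cluster of 50 or more cells. MT1X was found in 31.2% and 17.1% of the same cells, so the cluster with least MT2A kept a good deal of MT1X.

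Cluster 0 held 18.5% of the day 160 cells and 24.8% of their UMIs, but 42.0% of all MT2A UMIs and 38.6% of those of MT1X. At day 220 the SPARCL1 cluster, with 6 of 12 astrocyte markers raised, held 24.0% of cells and 30.5% of UMIs, but 58.9% of MT2A and 47.2% of MT1X. Its MT2A level was 365 CPM (352 to 378), against 60.6 CPM (53.1 to 68.9) in the OLIG1 cluster, a 6.02-fold range (5.26 to 6.91) over the 4 clusters of 50 or more cells. In the smaller BRINP1 cluster of 38 cells, with neuronal precursor genes raised, MT2A had 24.9 CPM (15.2 to 38.5).

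**Figure D3:**
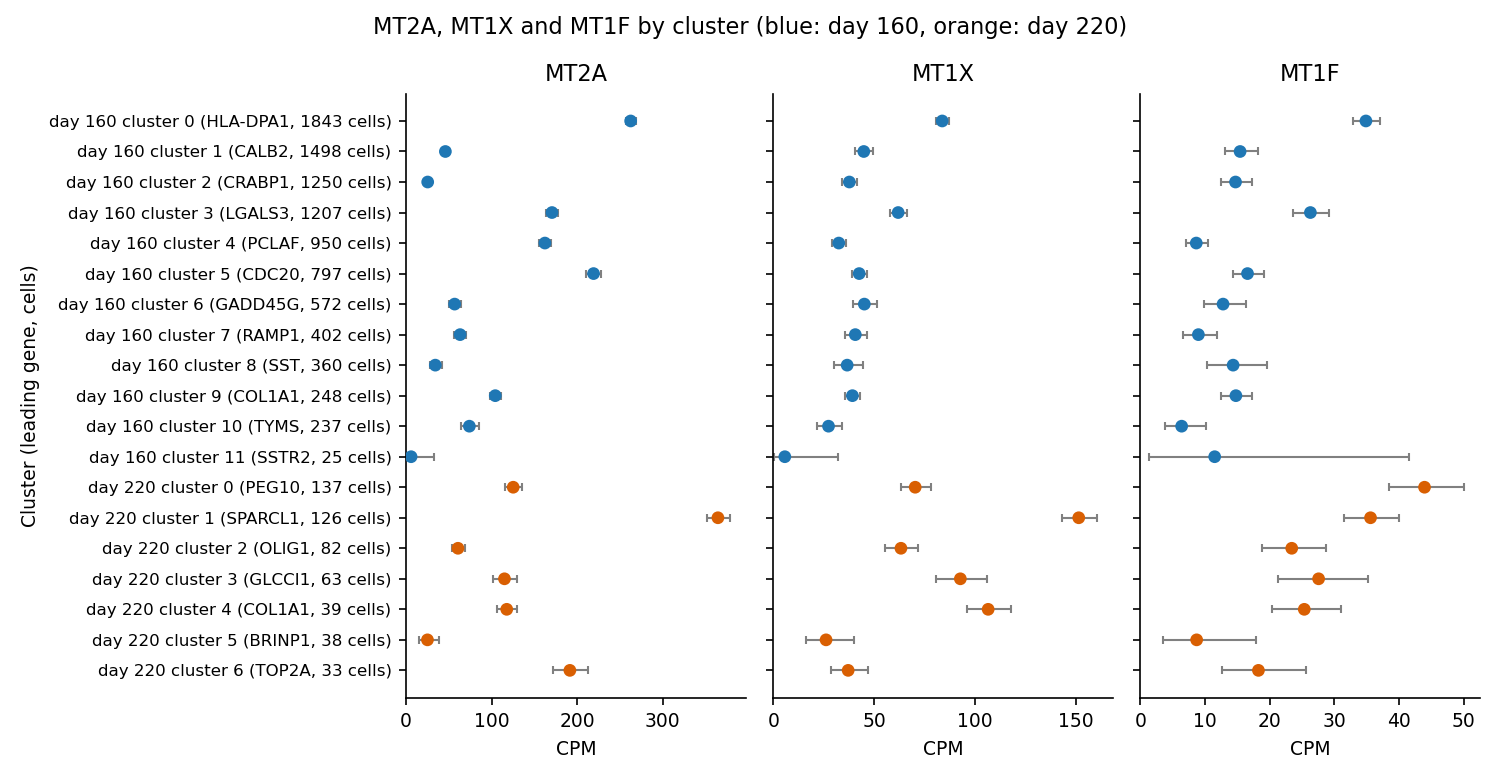
Level of MT2A, MT1X and MT1F in CPM (linear axes from 0) in each cluster of the day 160 (blue) and day 220 (orange) libraries, with 95% Poisson intervals of counting error and the leading gene and number of cells of each cluster. MT2A spans 25.2 to 263 CPM over the day 160 clusters of 50 or more cells, a wider relative range than MT1X, and the HLA-DPA1 and SPARCL1 clusters are highest for MT2A and MT1X.

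MT1X and MT1F varied less. At day 160, MT1X ranged from 27.4 CPM in the TYMS cluster to 83.6 CPM in cluster 0, 3.06-fold (2.44 to 3.88), and MT1F from 6.40 to 34.9 CPM between the same clusters, 5.45-fold (3.43 to 9.23). At day 220, MT1F was highest not in the SPARCL1 cluster, at 35.6 CPM (31.6 to 40.0), but in the PEG10 cluster, at 43.9 CPM (38.4 to 50.1), whose raised genes include those of DLX1, DLX2 and DLX5. The ratio of these 2 clusters was 1.23 (1.03 to 1.48).

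MT3 followed another pattern among the low clusters. It had 9.52 CPM (8.48 to 10.7) in cluster 0, 8.80 CPM (6.47 to 11.7) in the RAMP1 cluster and 8.12 CPM (6.67 to 9.80) in the LGALS3 cluster, which cannot be ordered within their intervals. The RAMP1 cluster, the second of the 2 day 160 clusters with 3 or more astrocyte markers raised (GFAP, AQP4 and ALDH1L1), had only 63.1 CPM of MT2A. The radial glia genes VIM, HOPX and TNC and the contractile genes ACTA2, TAGLN and TPM2 were also raised in it. Its MT3 to MT2A ratio was 0.139 (0.101 to 0.19), the highest of the day 160 clusters, against 0.0362 in cluster 0. In the CRABP1 cluster MT3 rested on 5 UMIs and in the SST cluster on 1. At day 220 MT3 had 10.1 CPM in the SPARCL1 cluster and 1 UMI in the OLIG1 cluster.

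The balance of MT2A to MT1X also differed between clusters. Their UMI ratio needs no scaling to a library total. At day 160 it moved with the depth of the cells, at 1.27 in the 2493 cells with fewest UMIs and 3.27 in the 2492 with most. At day 220 the ratio did not rise steadily, at 1.85, 1.53, 2.14 and 1.93 in 4 equal groups of cells from fewest to most UMIs. It was 2.89 over all day 160 cells and 1.94 over all day 220 cells. By cluster at day 160 it ran from 0.668 (0.569 to 0.784) in the CRABP1 cluster to 5.15 (4.67 to 5.69) in the CDC20 cluster, a 7.71-fold range. The MT1F to MT1X ratio ran only from 0.221 to 0.425, a 1.92-fold range. Of 18 clusters with at least 30 cells over both days, MT2A exceeded MT1X beyond counting error in 12, the interval of the ratio held 1 in 5, and MT2A was the lower gene in 1, the CRABP1 cluster.

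**Figure D4:**
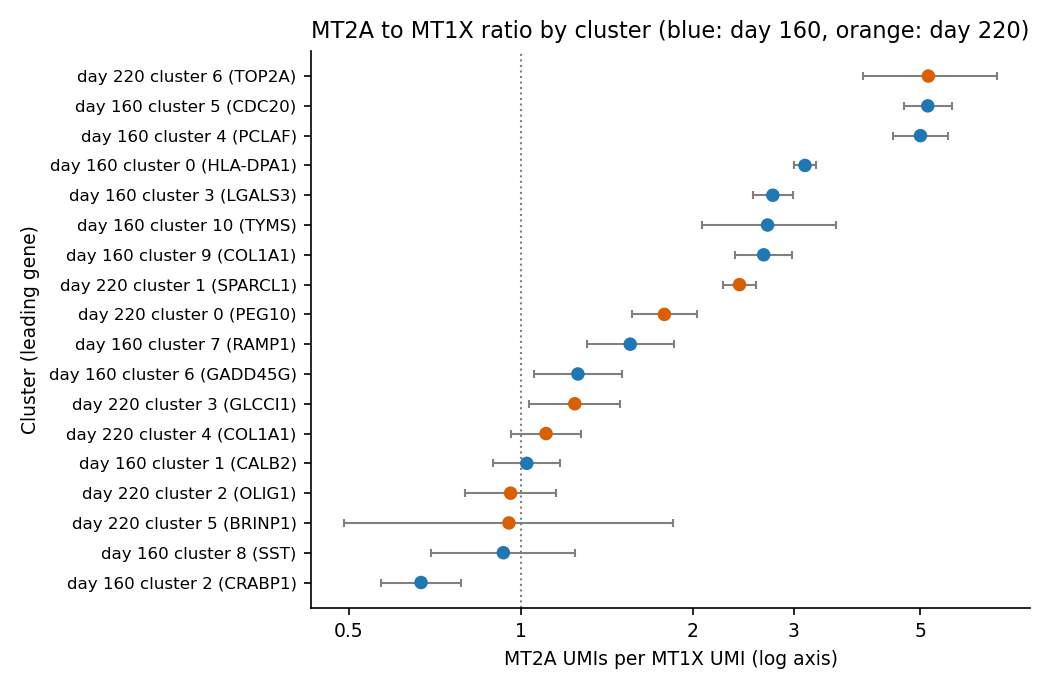
MT2A UMIs per MT1X UMI (log axis) in the 18 clusters with at least 30 cells, day 160 in blue and day 220 in orange, with 95% conditional binomial intervals and a dotted line at 1. The TOP2A, CDC20 and PCLAF clusters, with cell-division genes raised, lie at 5.003 to 5.16, and the CRABP1 cluster lies at 0.668.

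The 3 highest ratios belonged to 3 of the 4 clusters with 3 or more cell-division markers raised. They were 5.16 (3.97 to 6.81) in the day 220 TOP2A cluster of 33 cells, with 12 of 12 cell-division markers raised, 5.15 in the day 160 CDC20 cluster, with 9 raised, and 5.003 (4.48 to 5.59) in the day 160 PCLAF cluster, with 10 raised. The other, the day 160 TYMS cluster, had 2.70 (2.07 to 3.56), an interval that holds the library's 2.89. Each gene was then taken alone. The CDC20 cluster had 219 CPM of MT2A against 171 CPM in the LGALS3 cluster, a ratio of 1.28 (1.21 to 1.36), while MT1X had 42.6 CPM against 61.8 CPM, a ratio of 0.688 (0.614 to 0.771). For the PCLAF cluster against the same cluster, MT2A had a ratio of 0.952 (0.895 to 1.01), MT1X 0.525 (0.464 to 0.593) and MT1F 0.329 (0.262 to 0.411). Beside the LGALS3 cluster, MT1X and MT1F were thus lower in both of these clusters, while MT2A was higher in one and within counting error in the other.

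The day 160 TYMS cluster, with 10 cell-division markers raised and CRABP1 at 2085 CPM, was set beside cluster 2, with CRABP1 at 4327 CPM. MT2A had 74.0 CPM against 25.2 CPM, a ratio of 2.94 (2.43 to 3.54), and MT1X had 27.4 CPM against 37.7 CPM, a ratio of 0.726 (0.561 to 0.929). At day 220 the TOP2A cluster had more MT2A than the OLIG1 cluster, by 3.16-fold (2.67 to 3.75), and less MT1X, with a ratio of 0.587 (0.441 to 0.772). Against the SPARCL1 cluster it had less of both, with ratios of 0.525 (0.468 to 0.587) for MT2A and 0.245 (0.189 to 0.314) for MT1X. In each of these pairs the ratio of MT2A was above that of MT1X. This only restates that the cluster with cell-division genes had more MT2A per MT1X than its partner. The pairs of clusters were chosen after their values were seen, and what else differs between them was not tested.

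Clusters of the 2 days that stood highest for the same gene were then compared, a choice also made after the clusters were known. Between the clusters with most HLA-DPA1, which are cluster 0 at day 160 and the SPARCL1 cluster at day 220, the summed family had 395 CPM and 569 CPM, a ratio of 1.44 (1.39 to 1.49). MT2A went from 263 to 365 CPM, a ratio of 1.39 (1.33 to 1.45), and MT1X from 83.6 to 151 CPM, a ratio of 1.81 (1.69 to 1.94), while MT1F had 1.02 (0.892 to 1.16) and MT3 1.06 (0.819 to 1.36). Between the COL1A1 clusters MT1X had 39.2 CPM and 106 CPM, a ratio of 2.71 (2.36 to 3.13), and MT2A had 1.13 (1.01 to 1.26).

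Other pairs went a different way. In the clusters with most SCGN, a gene of interneuron precursors, the family summed to 109 CPM at day 160 and 59.8 CPM at day 220, a ratio of 0.548 (0.401 to 0.732) that rests on 48 UMIs in 38 day 220 cells. In the clusters with most MKI67, a gene of dividing cells, the ratio was 0.878 (0.793 to 0.969). That pair set the day 220 TOP2A cluster, at 249 CPM, against the day 160 CDC20 cluster, at 284 CPM. The other day 160 clusters with cell-division markers raised were lower than both, at 210 CPM (PCLAF) and 112 CPM (TYMS). In the clusters with most GADD45G the ratio was 2.04 (1.81 to 2.29). The higher family level of the day 220 library was therefore not seen in all of these pairs. For dividing cells the direction depended on which day 160 cluster was taken. The differences between pairs were not tested.

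**Figure D5:**
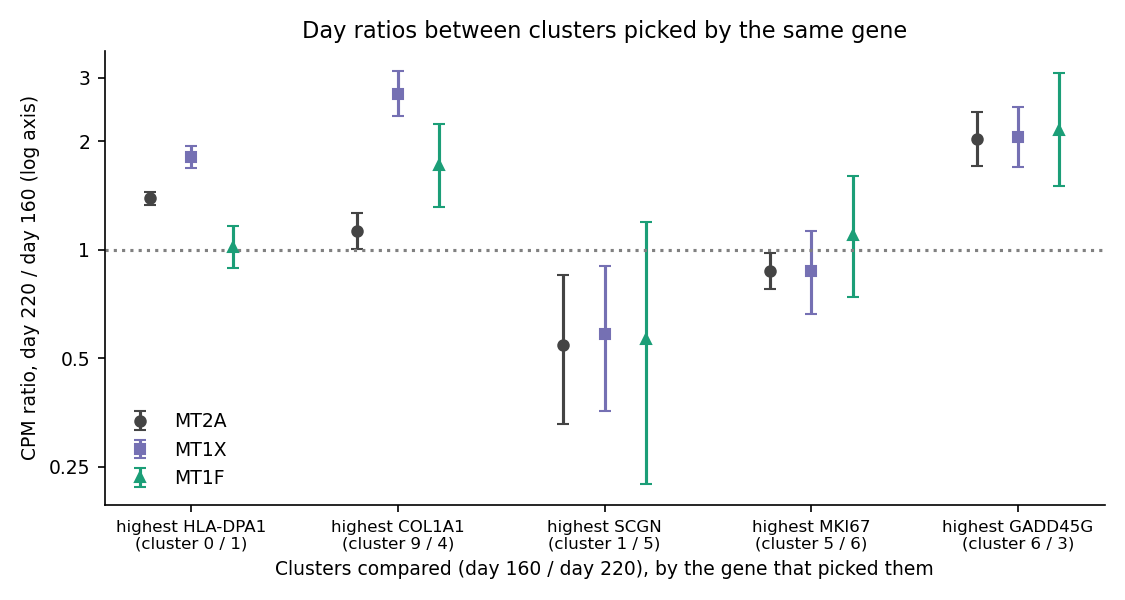
Ratio of CPM at day 220 to CPM at day 160 (log axis) for MT2A (circles), MT1X (squares) and MT1F (triangles) between the clusters of the 2 days that are highest for HLA-DPA1, COL1A1, SCGN, MKI67 or GADD45G, with 95% conditional binomial intervals and a dotted line at 1. MT1X has a ratio of 2.71 in the COL1A1 pair and 0.583 in the SCGN pair.

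Cell by cell, the members were tied together only weakly. Across thinned cells the Spearman correlation of MT1X with MT2A was 0.13 at day 160 (n = 9279) and 0.24 at day 220 (n = 494). These are descriptions from sparse counts, and cells of a library share their cluster and chemistry. Ranked by correlation with MT1X, MT2A was 1st of 5680 genes found in at least 10% of day 160 cells and 3rd of 6815 at day 220. The reverse did not hold, since ranked by correlation with MT2A, MT1X was 220th at day 160 and 16th at day 220. In terms of shares, MT1X was found in 17.5% of day 160 cells with no MT2A UMI, 24.7% of those with 1 or 2 and 34.9% of those with 3 or more, and in 20.5%, 33.1% and 52.0% at day 220. Within cluster 0 alone the correlation was 0.11, and in cluster 2 it was 0.02.

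The genes most like MT2A across day 160 cells were CLU at 0.37, GPM6B at 0.36, PTN at 0.36, VIM at 0.36 and FABP7 at 0.34. At day 220 they were EDNRB, an endothelin receptor of astroglia, at 0.35, the iron storage genes FTH1 at 0.33 and FTL at 0.30, CLU at 0.31 and SPP1 at 0.30. The lowest at day 160 was SOX4, a factor of neuronal differentiation, at -0.38. For MT1X at day 220 FTH1 led with 0.31. Across the 15 clusters with at least 50 cells, the Pearson correlation of log2 (CPM + 1) was 0.87 between MT1X and MT1F, 0.78 between MT2A and MT3, and 0.59 between MT2A and MT1X. For the other pairs of these genes it was 0.48 (MT2A and MT1F), 0.45 (MT1X and MT3) and 0.25 (MT1F and MT3). Among 11596 genes, MT1F ranked 47th for MT1X, while MT3 ranked 80th and MT1X 830th for MT2A. The clusters come from both libraries, so the difference between the days enters these values. Over those 15 clusters the genes most like MT2A were RABL3, SREBF1 and PLCE1 at 0.90, 0.90 and 0.89 and MTTP and FRZB at 0.88 each. For MT3 they were SCN4B at 0.92, C16orf74 at 0.90, LGALS3 and FZD8 at 0.89 each and TSPAN5 at 0.88. Across single cells the correlations of MT3 were lower, at most 0.12 at day 160 (PTN) and 0.19 at day 220 (HLA-DPA1). The clusters share libraries and depth, and no p is given.

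Depth moved with MT2A. Its thinned count had a Spearman correlation of 0.26 with a cell's full UMI count at day 160 and 0.27 at day 220, and its level was 59.3 CPM in the 2493 day 160 cells with fewest UMIs (1590 to 7095 per cell) and 181 CPM in the 2492 cells with most (15179 or more). MT1X had 46.8 and 55.4 CPM in the same cells. The correlation of MT2A with the mitochondrial share was 0.02 at day 160 and 0.18 at day 220. The part of depth and of mitochondrial share in the cluster differences was not tested.

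RNA of the metal sensor varied less over clusters than that of MT2A. The level of MTF1 was 13.9 CPM (13.3 to 14.6) in the day 160 library and 10.6 CPM (9.37 to 11.9) in the other, and over the clusters of 50 or more cells it stayed between 11.0 and 17.6 CPM at day 160 and between 9.47 and 11.4 CPM at day 220. SLC30A1, the zinc exporter of the cell surface and another known MTF1 target, had 15.6 CPM and 13.5 CPM, a ratio of 0.868 (0.773 to 0.973), and ranged from 11.0 to 19.0 CPM over day 160 clusters. MT2A ranged 10.4-fold over those same clusters. These are RNA levels, and the activity of MTF1 was not measured. Its part in the cluster differences was not tested.

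Of 20 listed zinc transporters and the sensor, 14 were counted. At least 2-fold higher at day 220 were 2, none was lower, and their median log2 ratio was 0.17. The 2 were SLC39A11, a zinc importer, at 2.72 and 31.3 CPM, and SLC30A6, a zinc transporter of the Golgi, at 8.46 and 20.01 CPM. Centred on genes of like intron length, neither reached 2-fold. Of 6 counted copper-handling genes none reached 2-fold, with a median of 0.38. Beside these medians the value over all counted genes was 0.14, and the share of all genes at least 2-fold higher was the 22.8% given above.

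Lists for the other known inducers were counted in the same way. Beside them, 28.0% of all counted genes were at least 2-fold apart, 22.8% higher and 5.15% lower. The lists are too short to be told apart from these shares. Of 13 counted antioxidant genes 2 were higher and none lower, namely HMOX1, the haem oxygenase, at 5.999 and 27.6 CPM, and FTH1 at 3861 and 9318 CPM, with a list median of 0.24. Of 5 counted glucocorticoid response genes 1 was higher, the receptor NR3C1 itself, at 15.5 and 33.7 CPM, with a median of 0.14. Of 7 counted genes of the LIF and STAT3 list, JAK2 was higher at 5.74 and 29.3 CPM and SOCS3, the feedback inhibitor, was lower at 70.2 and 28.8 CPM, with a median of 0.34. Of 9 counted heat shock genes, HSPA1B was lower, at 42.3 and 16.5 CPM, and the median was -0.48. The log2 ratios of HMOX1 and FTH1, which respond to haem and iron, were 2.03 and 1.27, and that of FTL, the other ferritin subunit, was 0.99, just under the line.

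Centring on genes of like intron length changed several of these calls. Over all genes, 1058 of 10139 were then at least 2-fold higher and 763 lower. Of the antioxidant genes 3 were then higher, as FTL joined at 1.39, and 1 was lower, NFE2L2, the transcription factor of that response, at -1.88. NR3C1 at -0.21, SOCS3 at -0.85 and HSPA1B at -0.90 no longer passed, while JAK2 still did at 1.12. The medians were then 0.21 for the antioxidant list, -0.15 for the glucocorticoid list, -0.17 for the LIF and STAT3 list and -0.21 for heat shock, so those of the glucocorticoid and LIF lists turned sign.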

How the data were processed

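Both libraries were measured with a 10x Genomics 3′ kit, per the labels' protocols. The deposited values are raw UMI counts per gene and barcode, and the file headers name Cell Ranger 7.0.1 as the counter the authors used. The submitters' processing notes give Cell Ranger 7 and Seurat 4 with build hg38. Not given in the sources used here are the annotation release, intron counting, strand and cell calling. The members and gene lists were chosen with earlier results of these data known. The rule for named genes took the 7 members, other metallothionein genes with a UMI, MTF1 and SLC30A1, the up to 4 largest ratios of each list and the 5 genes most like MT2A and MT3. Of these, list genes under 2-fold other than FTL, and those most like MT3 by cell beyond the top 1, are not all given. SOX4 and the gene set beside MT1X were chosen after their values were seen.

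Counts were summed per library or cluster and scaled to CPM, and ratios used a pseudocount of 1 CPM on the log2 scale only. Scanpy 1.11.5 clustered each library alone (10000 counts per cell, 2000 variable genes, 30 components, 15 neighbours, Leiden resolution 0.5). Scrublet, with an expected rate of 0.06, marked 583 and 6 kept barcodes as doublets. These stayed in library sums and were left out of the clusters. A cluster's leading gene had the highest fold of CPM + 10 over its library's other cells. Locations and intron lengths came from GENCODE release 29. Coding sequences were compared for 6 of the 7 members. The scripts were tested on simulated counts. Cells were not treated as replicates, and no p-value was computed.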

Additional observations from a re-analysis of the deposited data

Results flagged for a closer look

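The day ratio of the summed family did not run one way in all pairs of clusters picked by the same gene. It was 1.44 in the HLA-DPA1 pair, 1.60 in the COL1A1 pair and 2.04 in the GADD45G pair, but 0.548 in the SCGN pair and 0.878 in the MKI67 pair. For dividing cells the direction depended on which day 160 cluster was taken. The difference between pairs was not tested.

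Metallothionein RNA was also present in barcodes that the limits on genes and mitochondrial share left out. Barcodes over the mitochondrial limit with 1000 or more genes had a summed 227 CPM at day 160 (2426 barcodes) and 414 CPM at day 220 (62 barcodes), and MT1X in the latter had 179 CPM against 97.6 CPM in the kept cells. Barcodes under the gene limit had 148 CPM at day 160 and 331 CPM at day 220, the latter from 42 UMIs.

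MT1A, outside the chosen genes, had 0.171 CPM at day 160, and MT1H had 0.0466 CPM at day 160 and 0.192 CPM at day 220, all above the level of 3 UMIs.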

How the results depend on the processing

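No paired analysis was possible because each day has 1 library. The summed level, at a log2 ratio of 0.46, kept its direction in all settings tried. It was 0.50 with a mitochondrial limit of 10%, 0.51 with none, 0.35 when scaled without mitochondrially encoded and ribosomal protein genes, 0.32 when scaled to a median ratio of 0, 0.38 in thinned cells and 0.86 when centred on intron length. The count of members at least 2-fold apart was 0 in all settings but the last, where it was 1 (MT1X). Except with no filter on level, MT1G and MT1M were not counted, being under 10 CPM. As plain ratios they were 2.58-fold higher and 3.23-fold lower. With no filter the pseudocount of 1 CPM kept them under 2-fold. With a pseudocount of 0.1 CPM their log2 ratios were 1.29 and -1.42. Over all genes the count was 2842, and 1874 with a pseudocount of 10 CPM, 1821 with intron centring, 4772 with no filter on level and 1231 with a filter of 50 CPM, the last 2 by testing more or fewer genes. The share of calls that were higher at day 220 was 81.6%, but 58.1% with intron centring. Over 13 settings MT2A ranged from 0.15 to 0.69, MT1X from 0.55 to 1.25 and MT1F from 0.42 to 0.99, while MT3 and MT1E changed sign. Leaving out the highest cell of each library was added after seeing the data. At a clustering resolution of 1, MT2A at day 160 ran from 2.71 CPM in a cluster led by NSG2 to 363 CPM in one led by NMU, in place of 25.2 to 263 CPM, and the lowest MT2A to MT1X ratio moved from 0.668 to one of 1 against 6 UMIs. The day 220 library, with 524 cells, limits MT1M, MT1E and MT3.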
